A study of Mus musculus with 6 samples.

Results

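Cerebellins are small secreted glycoproteins of the C1q family, and delta glutamate receptors are the postsynaptic proteins that most of them bind. The genes described here are Cbln1, Cbln2, Cbln3 and Cbln4, which encode the cerebellins, and Grid1, which encodes the delta receptor GluD1. They are 5 of 23016 entries in a table of gene expression in newborn mouse cortex, found by their symbols, 1 entry for each gene. The group was chosen by a look at the difference between Fezf2 KO and wild type in this same table. That difference is therefore given for the 5 genes as a description, with values, errors and calls, and with no test of its own.

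The libraries were made from total RNA of cerebral cortex at postnatal day 0, 1 brain to a library, from pups of Fezf2+/- parents. The wild type group (Fezf2+/+) and the Fezf2 KO group (Fezf2-/-) held 3 pups each. The Fezf2 protein is a transcription factor that cortical neurons of the deep layers need for their identity. The labels do not say which part of the gene the mutant allele lacks. The pups belonged to 2 litters, with replicate 3 of both genotypes from m2 and the others from m1.

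A cerebellin is released from the axon terminal and joins a neurexin on that terminal to a delta receptor on the facing dendrite, so the 3 proteins form a bridge across the synaptic cleft. Cbln1 is best known from cerebellar granule cells, where it bridges synapses onto Purkinje cells. Cbln3 is known as a granule cell protein that needs Cbln1 for its secretion. Cbln2 and Cbln4 are made by sets of forebrain neurons, Cbln4 by somatostatin interneurons among others, and GluD1 is the delta receptor that prevails in forebrain.

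The paralogs resemble one another, and the reads of the table were assigned to genes by sequence, so the coding sequences were compared in the GENCODE M21 transcripts (build GRCm38). Cbln1 shares 73.7% of aligned coding bases with Cbln2, 69.5% with Cbln4 and 68.4% with Cbln3. The longest run of identical bases between the coding sequences of any pair of cerebellins was 21 bases, in the pairs Cbln1 with Cbln3 and Cbln2 with Cbln4. The length of the reads and the handling of reads with several matches are not stated.

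Of all pairs of cerebellins, Cbln1 and Cbln2 had the closest 60 aligned coding bases, with 6 that differ, and these are not shown. The most similar 60 aligned coding bases of Cbln1 and Cbln4 show how far that pair has diverged where it is closest, with the 8 bases that differ in capitals. The Cbln1 stretch lies at chr8:87472118-87472177 and that of Cbln4 at chr2:172042167-172042226, both on the minus strand, in coding exons (GRCm38).
Cbln1: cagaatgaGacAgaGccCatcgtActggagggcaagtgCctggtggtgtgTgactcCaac
Cbln4: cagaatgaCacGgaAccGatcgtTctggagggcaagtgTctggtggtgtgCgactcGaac

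The deposited value of a gene is its read count divided by 1 size factor for the library, called normalised reads here. Whole reads could be recovered for 100% of values within 0.006, and summed to between 44978380 and 52872577 per library. Fezf2 itself, the check on the labels, spanned 5030 to 5928 normalised reads in wild type against 1377 to 1989 in Fezf2 KO (log2 -1.75, SE 0.129, limma adjusted p = 0.000832). The 7 markers of cortical projection neurons were all present, Neurod2 at 27334 to 35794 normalised reads. Fezf2 KO replicate 1 stood apart by tissue markers. Its 7 choroid plexus genes summed to 9709 normalised reads against 103 to 255 in the other 5 libraries, while its 12 striatal genes summed to 7078, the lowest of the 6. In bulk tissue, fewer cells that express a gene and less RNA per cell cannot be told apart.

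Cbln1 was higher in Fezf2 KO cortex. It measured 4055, 4260 and 3945 normalised reads in wild type 1, 2 and 3, against 5273, 4962 and 5209 in Fezf2 KO 1, 2 and 3. The genotypes did not overlap, and within each genotype the libraries lay close together, the highest at 1.08 times the lowest in wild type and 1.06 times in Fezf2 KO. The means were 4087 ± 160 and 5148 ± 164 (SD, n = 3 each), a difference of 26.0% (log2 0.33, SE 0.051). The log2 difference was 0.30 within litter m1 and 0.40 between the 2 pups of litter m2. Cbln1 is also a gene of thalamic neurons, and the 7 tested markers of thalamus held 1 call, Slc17a6, a vesicular glutamate transporter, at 608, 698 and 687 normalised reads in wild type against 929, 989 and 966 in Fezf2 KO (log2 0.53, limma adjusted p = 0.0276). All 9 listed thalamic genes summed to 13548 to 15172 in wild type against 14974 to 17708 in Fezf2 KO, most of it Lhx2, which cortex also expresses, and Olig3 had at most 1 read in any library. Prox1, which was also listed as a hippocampal marker, was at 596 to 700 in wild type and 708 to 782 in Fezf2 KO. It did not overlap but was not called, and 7.6% of all genes tested were higher with no overlap. Lhx2, Lhx9, Cdh7, Gbx2 and Tcf7l2 overlapped between the genotypes, Lhx9 at 7.73 to 15.9 in wild type and 12.2 to 33.2 in Fezf2 KO. Cdh7 measured 102, 71.5 and 95.4 in wild type 1, 2 and 3, against 25.2, 97.0 and 64.5 in Fezf2 KO 1, 2 and 3, and Tcf7l2 spanned 111.7 to 122.9 in wild type and 104.7 to 124.5 in Fezf2 KO. The part of thalamic cells in the values of Cbln1 was not tested.

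Grid1 was higher by nearly the same proportion. Its values were 3513, 3621 and 3574 normalised reads in wild type 1, 2 and 3, against 4009, 4806 and 4756 in Fezf2 KO 1, 2 and 3. All 3 Fezf2 KO libraries lay above all wild type libraries, which were tightly grouped, and Fezf2 KO 1 was the one nearest to wild type. The means were 3569 ± 54.5 and 4524 ± 446 (SD, n = 3 each), a difference of 26.7% (log2 0.34, SE 0.074). The log2 difference was 0.30 within litter m1 and 0.41 in litter m2. Grid1 lies on chromosome 14, as Fezf2 does, 22.5 Mb away in GRCm38. Cbln3 lies on that chromosome too, 43.5 Mb from Fezf2.

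**Figure D1:**
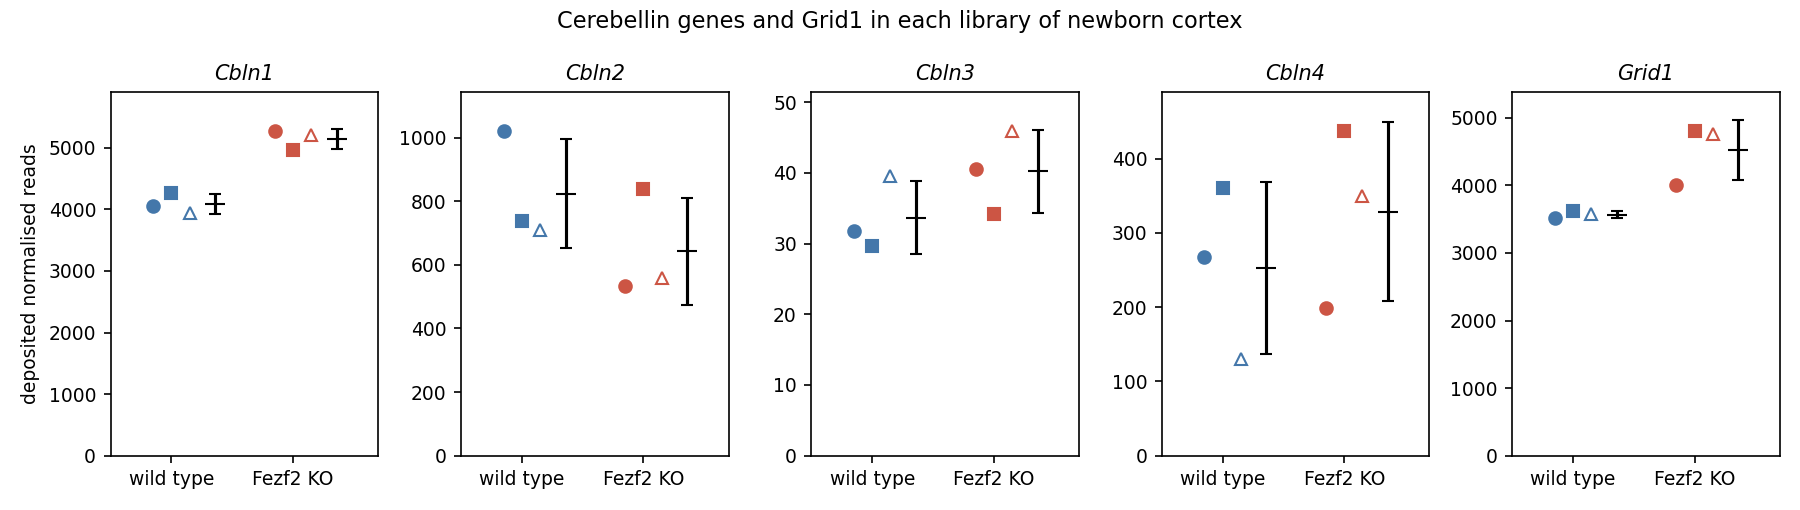
Normalised reads (y axis, from 0) of each gene in the 6 libraries, wild type in blue and Fezf2 KO in red, with circles, squares and open triangles for replicates 1, 2 and 3 (open triangles are litter m2) and black bars for the mean ± SD of 3. The genotypes separate for Cbln1 and Grid1 and overlap for Cbln2, Cbln3 and Cbln4.

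Cbln2 leaned the other way, with overlap. It measured 1021, 738 and 711 normalised reads in wild type 1, 2 and 3, against 533, 837 and 558 in Fezf2 KO 1, 2 and 3. Fezf2 KO 2 lay above wild type 2 and 3, while Fezf2 KO 1 and 3 were the lowest of the 6 libraries. The means were 823 ± 172 and 643 ± 169 (SD, n = 3 each; log2 -0.37, SE 0.197). The log2 difference was -0.20 without wild type 1 and -0.57 without Fezf2 KO 2. The 12 striatal markers were likewise highest in wild type 1 and lowest in Fezf2 KO 1. They summed to 18986, 16686 and 14796 normalised reads in wild type 1, 2 and 3 and to 7078, 12696 and 8369 in Fezf2 KO 1, 2 and 3, with 0 of the 12 at 0 in all libraries and 1 called lower, Ppp1r1b. Their part in the values of Cbln2 was not tested.

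Cbln4 varied more between pups than any other cerebellin. It measured 268, 360 and 131 normalised reads in wild type 1, 2 and 3, against 199, 437 and 350 in Fezf2 KO 1, 2 and 3. The lowest value was that of wild type 3 and the highest that of Fezf2 KO 2, and the genotypes overlapped widely. The highest library was 2.76 times the lowest in wild type and 2.20 times in Fezf2 KO, with means of 253 ± 116 and 329 ± 121 (SD, n = 3 each; log2 0.42, SE 0.394). The direction differed between litters, with a log2 difference of -0.07 in m1 and 1.41 between the 2 pups of m2. It was 0.01 without wild type 3. The 9 GABAergic interneuron markers summed to 37621 to 41550 normalised reads in wild type and to 40753 to 46679 in Fezf2 KO, 0 of them stood at 0 in all libraries, and 0 were called by limma. Some of them, Gad1, Slc32a1, Sst and Nxph1, were, like Cbln4, lowest in Fezf2 KO 1 and highest in Fezf2 KO 2 among the Fezf2 KO libraries. Lhx6 and Npas1 had the opposite order, and Gad2, Dlx1 and Dlx2 had neither. Sst, the somatostatin gene, measured 3571, 3302 and 3249 in wild type 1, 2 and 3, against 3202, 4990 and 3749 in Fezf2 KO 1, 2 and 3. Gad1, a GABA-synthesizing enzyme, measured 2838, 2507 and 2771 against 2069, 3849 and 3066. In wild type neither Sst nor Gad1 followed the order of Cbln4. Lhx6 did not overlap, at 6807 to 7429 in wild type against 8590, 7868 and 8471 in Fezf2 KO 1, 2 and 3. Dlx2 did not overlap either, at 4895 to 5291 in wild type and 5690 to 5974 in Fezf2 KO. Both were higher in Fezf2 KO, where 7.6% of all genes tested were higher with no overlap. The rest of the 9 overlapped, Npas1 at 2917 to 3507 in wild type against 3572, 3479 and 3518 in Fezf2 KO. The part of GABAergic interneurons in the values of Cbln4 was not tested.

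Cbln3 had the lowest values of the 5 genes, above a filter that kept genes with 10 or more normalised reads in 3 or more libraries. It measured 31.8, 29.7 and 39.5 normalised reads in wild type 1, 2 and 3, against 40.6, 34.1 and 45.9 in Fezf2 KO 1, 2 and 3. The genotypes overlapped, with means of 33.7 ± 5.19 and 40.2 ± 5.90 (SD, n = 3 each; log2 0.25, SE 0.205). The log2 difference was 0.15 without Fezf2 KO 3. These values rest on 34 to 52 reads in each library. The 8 listed cerebellar granule cell markers summed to 3889 to 4814 normalised reads in wild type and to 3329 to 3772 in Fezf2 KO, and 0 were called by limma. Most of that sum came from Neurod1, at 1247 to 1643, and from Pax6, Zic1, Zic2 and Meis1, which other brain cells also express. Gabra6, an adult granule cell receptor subunit, had at most 1 read, and Atoh1, the granule cell progenitor factor, at most 3 reads in any library. Barhl1 was at 0.94 to 6.98 in wild type and 14.1 to 18.7 in Fezf2 KO, higher with no overlap, as were 7.6% of all genes tested. Zic1 and Neurod1 did not overlap either, and both were lower in Fezf2 KO. Zic1 was at 470 to 954 in wild type and 353 to 443 in Fezf2 KO, and Neurod1 at 1497 to 1643 and 1247 to 1476. The part of granule cells in the values of Cbln3 was not tested.

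All 5 genes passed the filter on low values, as did 17557 of the 23016 entries. A limma fit of log2(normalised reads + 1) across these genes called 0.712% of them at a Benjamini-Hochberg adjusted p under 0.05, and 0.404% in the higher direction. Of the 5 genes it called 1, Cbln1, as higher, and Grid1 was not called. Non-overlapping genotypes with Fezf2 KO above wild type were found for 2 of the 5, Cbln1 and Grid1, and for 7.6% of all genes tested. DESeq2 on the recovered reads called both Cbln1 and Grid1 higher, and it called 1.38% of all genes higher. The genes were chosen with this contrast in view, so nothing is read from these shares.

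The call of Cbln1 needed all 6 libraries, since it was lost with any 1 of them left out, while its log2 difference stayed between 0.31 and 0.36. Without Fezf2 KO 1, the library rich in choroid plexus genes, Grid1 was called in place of Cbln1, with a log2 difference of 0.42, in a fit that called 0.285% of all genes higher. Without that library the log2 difference of Cbln1 was 0.32, of Cbln2 -0.25, of Cbln3 0.24 and of Cbln4 0.75.

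Among all genes tested, 10.9% differed between the genotypes by more than Cbln1 did on the log2 scale and 10.7% by more than Grid1. These shares were 9.31% for Cbln2, 16.6% for Cbln3 and 7.42% for Cbln4. In contrast, 8.41% had a smaller standard error than Cbln1, against 31.0% for Grid1, 78.7% for Cbln2, 80.2% for Cbln3 and 97.1% for Cbln4. These shares only describe the 5 genes, which were chosen with this contrast in view, and nothing is read from them.

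Levels of different genes were compared per 1000 bases of exon, using the union of GENCODE M21 exons (GRCm38), since the gene models behind the table are not given. Cbln1 stood first in wild type, with 1346 ± 52.6 normalised reads per 1000 bases (SD, n = 3). Grid1 followed at 599 ± 9.13, Cbln2 at 284 ± 59.3 and Cbln4 at 87.1 ± 39.8. Cbln3 was lowest at 6.92 ± 1.07. In Fezf2 KO the order was the same, and no neighbours in it overlapped in either genotype. The order held, again with no overlap, when the length of the longest coding transcript replaced the exon union. The level of Cbln3 in wild type was then 23.4 ± 3.61, and that of Cbln1 was 2405 ± 94.0.

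Cbln1 made up most of the cerebellin signal per length in each library. Wild type 1, 2 and 3 had a Cbln1 share of 74.7%, 78.5% and 81.3%, against 86.9%, 78.5% and 84.2% for Fezf2 KO 1, 2 and 3. The genotypes overlapped in this share, with Fezf2 KO 2 among the wild type libraries. The share of Cbln2 was 14.3% to 19.7% in wild type and 9.22% to 13.9% in Fezf2 KO, so these 2 ranges did not overlap, although the levels of Cbln2 did. Cbln1, which was higher in Fezf2 KO, makes up most of the total in this share. The share of Cbln2 is therefore not independent of Cbln1. Cbln3 stayed at or below 0.508% in all libraries, or 1.01% with the longest coding transcript.

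**Figure D2:**
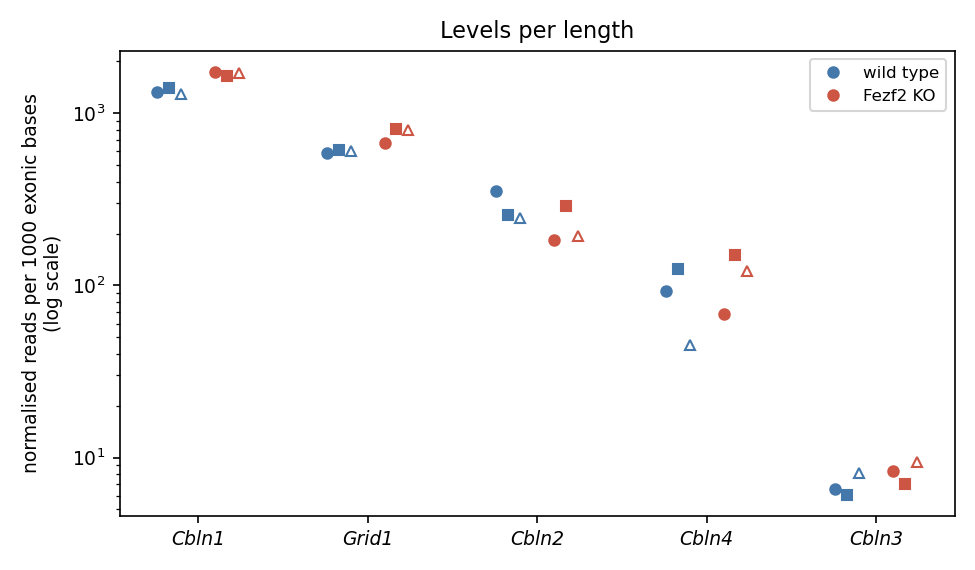
Normalised reads per 1000 exonic bases (y axis, log scale) of the cerebellin genes and Grid1, ordered by their wild type mean, with wild type in blue, Fezf2 KO in red and circles, squares and open triangles for replicates 1, 2 and 3. Cbln1 is highest at 1299 to 1736, and Cbln3 is lowest at 6.10 to 9.44 over the 6 libraries.

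A noncoding transcript that starts beside Cbln1 was higher in Fezf2 KO as well. Gm2694, chosen after its values were seen, is a long noncoding gene on the strand opposite to Cbln1, and 10 of its 11 GENCODE transcripts start upstream of Cbln1 and run away from it. The nearest of these starts is separated from that of Cbln1 by 202 bases (GRCm38). The remaining transcript starts beyond the other end of Cbln1 and spans it, yet the genes share 0 exonic bases in that annotation. Gm2694 measured 206, 201 and 206 normalised reads in wild type 1, 2 and 3, against 331, 320 and 354 in Fezf2 KO 1, 2 and 3. The genotypes did not overlap, and the means were 204 ± 3.10 and 335 ± 17.5 (SD, n = 3 each; log2 0.71, SE 0.095, limma adjusted p = 0.0157).

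An assembled transcript at the same place, linc-Cbln1-BP, held nearly the same values, 210 to 217 in wild type and 331 to 364 in Fezf2 KO, and is not a separate observation. Gm2694 equalled 4.71% to 5.23% of the Cbln1 value in wild type and 6.28% to 6.80% in Fezf2 KO. Whether the libraries kept strand is not given, so reads from the 2 genes could not be told apart wherever their transcripts overlap. Leaving out wild type 1, wild type 2, wild type 3 or Fezf2 KO 3 gave Gm2694 limma adjusted p of 0.0568, 0.0726, 0.0649 and 0.0927, and litter m1 alone gave 0.25.

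The promoter sequence of Gm2694 is shown because this gene and Cbln1 start side by side and were both higher. It is the RefSeq window (GRCm38.p6, chr8:87472866-87473165, plus strand), which surrounds a start of Gm2694 and does not reach Cbln1, with each CG dinucleotide in capitals.
Gm2694 window: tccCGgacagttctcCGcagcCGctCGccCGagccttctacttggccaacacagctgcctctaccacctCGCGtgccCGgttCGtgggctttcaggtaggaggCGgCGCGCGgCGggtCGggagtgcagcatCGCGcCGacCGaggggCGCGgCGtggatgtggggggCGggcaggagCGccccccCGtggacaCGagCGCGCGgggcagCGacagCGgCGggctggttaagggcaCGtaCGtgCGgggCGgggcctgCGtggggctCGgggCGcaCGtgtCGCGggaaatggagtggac
The 300 bases hold 42 CG dinucleotides and 73.7% G and C. The median over 32851 RefSeq promoter windows of this length is 7 CG dinucleotides and 52.7% G and C, and 3.03% of the windows hold at least as many CG dinucleotides.

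**Figure D3:**
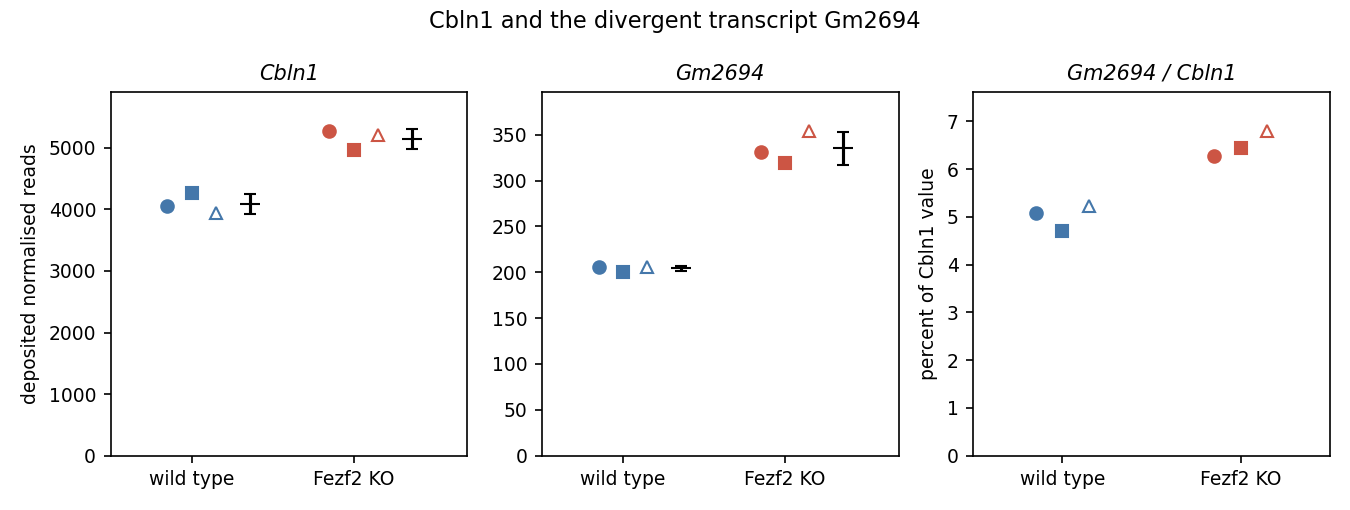
Normalised reads (y axes, from 0) of Cbln1 and Gm2694 in the 6 libraries with mean ± SD of 3 as black bars, and Gm2694 as a percentage of Cbln1 at the right, with colours and symbols as for the genes by library. Both genes separate the genotypes, and the percentage goes from 4.71 to 5.23 in wild type to 6.28 to 6.80 in Fezf2 KO.

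The other genes of this synaptic system were taken from 5 lists of 36 symbols, of which 35 were in the table and 34 passed the filter. Limma called 1 of them higher and 2 lower, and 31 were not called, while it called 0.712% of all genes tested. Their median log2 difference was 0.02, against 0.0025 over all genes tested. DESeq2 called the same 3 and Lrrtm2, as lower, and edgeR called the same 3. All 3 calls fell among the other neurexin ligands, which compete with cerebellins for neurexins or bind beside them. The lists were chosen with earlier results of these data known, so nothing is read from where the calls fell.

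None of the 5 presynaptic receptors was called by limma, edgeR or DESeq2, and the median log2 difference of the list was 0.17. An unadjusted limma p below 0.05 was reached by 2 of them. The share of all genes tested below that threshold was not counted. Nothing is therefore read from such counts, here or for the lists that follow. Nrxn2, a neurexin, had 47053 ± 3622 normalised reads in wild type and 47416 ± 1929 in Fezf2 KO (log2 0.01). Nrxn3, another neurexin, had 2075 ± 110 and 2285 ± 425 (log2 0.12). Neo1, which encodes neogenin, a relative of the Cbln4 receptor DCC, had 14822 ± 2250 and 18309 ± 1013 (log2 0.31, SE 0.103, limma adjusted p = 0.342). The direction of Nrxn2 turned to -0.05 without wild type 3, to -0.01 without Fezf2 KO 2 and to -0.06 in litter m1 alone, and that of Nrxn3 to -0.02 without Fezf2 KO 2.

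The list of delta receptor and scaffold genes held 0 calls among 7 genes by limma, edgeR and DESeq2, with 1 limma p below 0.05 before adjustment, and its median log2 difference was 0.05. Shank2, a postsynaptic scaffold, had 9178 ± 264 normalised reads in wild type and 9726 ± 538 in Fezf2 KO (log2 0.08, limma adjusted p = 0.746).

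C1q-like proteins are relatives of the cerebellins that bind the adhesion receptor Bai3 and kainate receptors. Their list held 0 calls among 6 genes tested by limma, edgeR and DESeq2, and 0 had a limma p below 0.05 before adjustment. Their median log2 difference was 0.02, and C1ql4 had at most 2 reads in any library. C1ql1 had 546 ± 14.9 and 622 ± 69.4 normalised reads (log2 0.18, limma adjusted p = 0.673), and Grik4, a kainate receptor subunit, had 1479 ± 166 and 1270 ± 127 (log2 -0.22, limma adjusted p = 0.596).

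Lrrtm4, a postsynaptic leucine-rich protein that binds neurexins and heparan sulfate, rose. It measured 531, 528 and 529 normalised reads in wild type 1, 2 and 3, against 766, 709 and 773 in Fezf2 KO 1, 2 and 3. The genotypes did not overlap (log2 0.50, SE 0.074, limma adjusted p = 0.0267). The adjusted p lay between 0.0501 and 0.129 with any 1 library left out and was 0.297 in litter m1 alone, with a log2 difference of 0.48 to 0.54 throughout.

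The neurexophilins Nxph3 and Nxph4, secreted ligands of neurexins, fell. Nxph3 had 6199 ± 255 normalised reads in wild type against 787 ± 151 in Fezf2 KO (log2 -2.99, SE 0.123, limma adjusted p = 3.63e-05). For Nxph4 the means were 2020 ± 21 against 1038 ± 116 (SE 0.086 around a log2 difference of -0.97, limma adjusted p = 0.00237). The remaining 10 neurexin ligands, the neuroligins among them, were not called by limma, and the median over all 13 was 0.01. In litter m1 alone the adjusted p of Nxph4 was 0.0874.

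Of the 3 Khdrbs genes, whose RNA-binding proteins govern inclusion of the neurexin exon that cerebellins require, 0 were called by limma, edgeR or DESeq2, and 0 had a limma p below 0.05 before adjustment. Their median log2 difference was -0.09. Khdrbs3 had 8410 ± 335 and 7887 ± 290 normalised reads (log2 -0.09, limma adjusted p = 0.675), and Khdrbs2 had 890 ± 43.5 and 842 ± 178 (log2 -0.10, and 0.01 without Fezf2 KO 2). The inclusion of that exon was not analysed here.

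**Figure D4:**
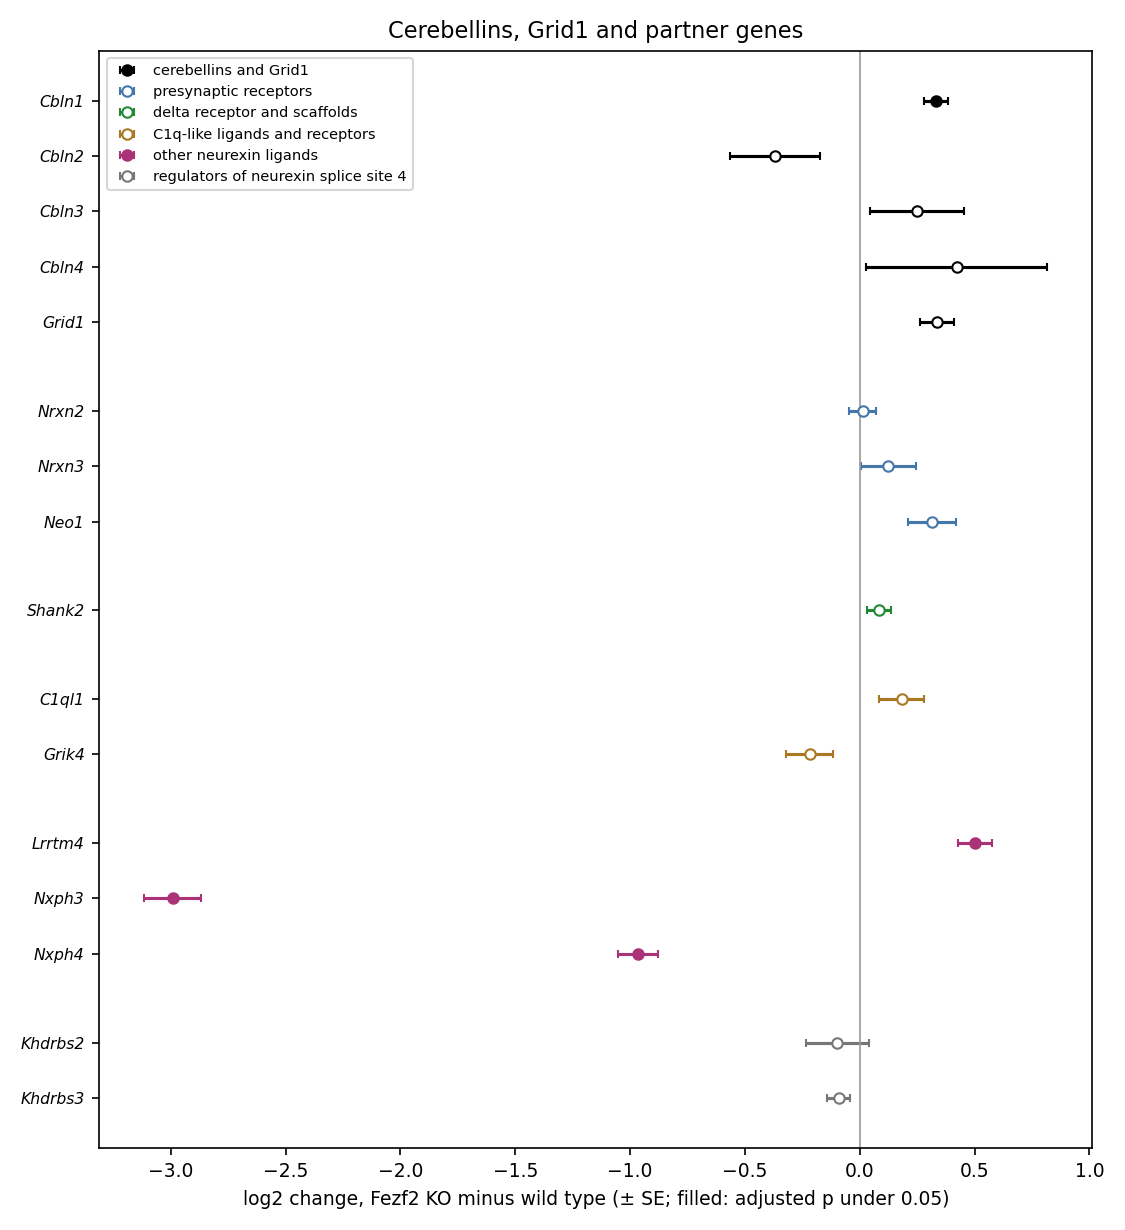
Log2 difference of Fezf2 KO from wild type (x axis, ± SE from limma) for the cerebellins and Grid1 in black and for the 11 partner genes described by name, coloured by list. Filled points have a limma adjusted p under 0.05; they are Cbln1 (0.33), Lrrtm4 (0.50), Nxph3 (-2.99) and Nxph4 (-0.97).

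For each gene the 3 most similar profiles over the 6 libraries were sought among 12218 genes with a mean of at least 50, by Pearson's r of the log2 values. These are descriptions over 6 points that share genotype, litter and library depth. Nearest to Cbln1 were Cck (r = 0.994), Lhcgr (0.989) and R3hdm2 (0.988). Cck, the gene of the neuropeptide cholecystokinin, measured 3170, 3888 and 3060 normalised reads in wild type 1, 2 and 3, against 7921, 7236 and 8621 in Fezf2 KO 1, 2 and 3. It kept the order of Cbln1 within wild type, where replicate 2 was highest and replicate 3 lowest, but not within Fezf2 KO, where Cck was highest in replicate 3 and Cbln1 in replicate 1. Nearest to Grid1 were Rnf144b (0.992), Igsf11 (0.992) and Mlxip (0.991), none of which was called by limma. Nearest to Cbln2 were Vcan (0.994), Gbf1 (0.990) and Rdm1 (0.988). Nearest to Cbln3 were Fam78b (0.991), Satb1 (0.984) and Ifngr2 (0.978). Nearest to Cbln4 were Ptpla (0.989), Tmem56 (0.984) and the collagen gene Col2a1 (0.983), which measured 114 in wild type 3 and 299 in Fezf2 KO 2, the same lowest and highest libraries as for Cbln4.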

How the data were processed

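Total RNA of 3 wild type and 3 Fezf2 KO newborn cortices was sequenced from Illumina TruSeq libraries with a Genome Analyzer II instrument, as per the labels' protocols. Bowtie, STAR, DESeq and the build mm9 are named, per the submitters' processing notes, without versions or settings. The deposited signal is, for each gene, the library's read count after division by that library's size factor, rounded. The value of 1 read was between 0.812 and 0.936, and dividing by it gave whole reads for 100% of values within 0.006.

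Genes that reached 10 normalised reads in 3 or more libraries were fitted across the whole table with limma 3.58.1 (R 4.3.3) on log2(value + 1), genotype as the single term and a variance trend, with Benjamini-Hochberg adjustment over 17557 genes. A gene was called at an adjusted p under 0.05. Log2 differences of low genes are understated by the added 1. The steps were checked on simulated data. edgeR 4.0.16 and DESeq2 1.42.0 on the recovered reads were alternatives; edgeR with TMM factors called 121 genes. Other alternatives were a pseudocount of 0.5, no filter, litter as a term, litter m1 alone and each library left out.

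Named were all 5 genes, the called genes of each partner list or the 2 with the smallest p, the neurexins and the 3 nearest profiles of each gene. Some genes of these lists enter the counts and medians but are not reported here by name. The genes and lists were chosen with earlier results of these data known. The labels give the litter of each library. Over 17557 genes, deviations from the genotype mean correlated at -0.137 to 0.223 for the 5 same-litter pairs and -0.162 to -0.0383 for the other 4. These ranges overlap. The deviations cancel within each genotype, so the correlations depend on one another and cannot show an effect of litter. Libraries are separate pups; no pair was a resampling of another (chi-square per degree of freedom 8.45 to 31.3). Counting limits cover counting error only. Sequences came from GENCODE M21 and RefSeq (GRCm38), compared with Biopython 1.88; Cbln3 and Cbln4 matched the RefSeq promoter table. Figures used matplotlib 3.10.9; tables used pandas 2.3.3 and Python 3.11.15.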

Additional observations from a re-analysis of the deposited data

How the results depend on the processing

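The direction of Cbln1, Grid1, Cbln2 and Cbln3 held under all 13 alternatives. The log2 difference ranged from 0.30 to 0.36 for Cbln1, 0.29 to 0.42 for Grid1, -0.57 to -0.20 for Cbln2 and 0.15 to 0.37 for Cbln3. That of Cbln4 ranged from 0.01 to 0.75 with 1 library left out and was -0.07 in litter m1 alone. With litter as a replicate block in limma, 138 genes were called, among them 1 of the 5 genes (Cbln1) and the same 3 partner genes. The block thus changed no call among the 5 genes and the partner genes. DESeq2 called 403 genes and 2 of the 5. In litter m1 alone 29 genes, 0 of the 5 and 1 partner gene (Nxph3) were called. Leaving out 1 library gave 61 to 119 genes, 0 to 1 of the 5, and 2 partner genes each time. These last fits also hold fewer libraries, and the cause of the differences was not tested. Among the partner genes described by name, directions turned for 3, none of them called. Nrxn2 was at -0.061 in litter m1 alone. With 1 library left out, Nrxn2 ranged from -0.051 to 0.055, Nrxn3 from -0.023 to 0.22 and Khdrbs2 from -0.26 to 0.012. Cbln3, at 34 to 52 reads per library, is the gene most limited by depth.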
